A study of Mus musculus with 4 samples.

Results

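The liver of wild-type mice fed fructose for 3 weeks was compared with that of wild-type mice fed the same diet for 2 weeks, as the log2 level on one expression array minus the log2 level on the other. Every gene named alone by at least 1 probe set entered, 22180 genes in all, and 11648 of them were bright enough on at least 1 of both arrays to be assessed. The comparison used 2 of the 4 arrays of the series. The 3-week array held RNA combined from the livers of 7 wild-type mice, and the 2-week array held RNA combined from 4. All mice were C57BL/6, were past 2 months of age and were given free access to food under alternating light and dark. Both fructose groups received a diet of 70% fructose, carried no engineered allele by their labels, and held males and females in proportions that the labels do not state. The other arrays held a pool of 7 wild-type mice on regular chow and a 2-week fructose pool of 6 Chrebp null mice, and their levels are given beside the comparison. Chrebp, also called Mlxipl, encodes a transcription factor that responds to sugar.

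The series design paired the 3-week pool with chow and the 2-week pool with the Chrebp null mice, so the comparison of 3 with 2 weeks crosses both pairs. Different mice, a different number of mice and possibly a different mix of sexes entered each pool. These and the week of diet cannot be told apart. With 1 array per pool there is no spread between animals, no test and no error on any difference below. The number of arrays limits the precision.

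Fructose is taken up by the liver and phosphorylated by ketohexokinase, and its carbon feeds glycolysis, fatty acid synthesis and glycogen. The adult mouse liver also differs between the sexes. Males release growth hormone in pulses and females more continuously, and the transcription factor STAT5 carries that pattern into the expression of cytochrome P450s, sulfotransferases and major urinary proteins. Many other liver transcripts follow feeding, the time of day and stress hormones, and several of these respond within minutes to hours.

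Levels are on the log2 scale, where a difference of 1 is a 2-fold ratio. A gene entered the counts if its brighter array reached a floor of 3.52, the midpoint of the genes' mean levels, and was counted where both arrays differed at least 2-fold. Of 11648 genes assessed, 148 (1.27%) were at least 2-fold higher at 3 weeks and 128 (1.10%) at least 2-fold lower, 276 (2.37%) either way. The lower level lay below the floor for 64 of the 148 and for 37 of the 128. With such levels set at the floor, 99 genes (0.850%) were still past 2-fold on the higher side and 98 (0.841%) on the lower side. The median difference over all genes assessed was -0.02, with 5560 genes (47.7%) above 0 and 6086 (52.2%) below. Counts of the lists below are to be read beside these shares. For scale, the 3-week pool differed at least 2-fold from chow in 211 of 11717 genes (1.80%) and the 2-week pool in 255 of 11622 (2.19%). These comparisons share the chow array. By this count the 2 wild-type fructose arrays stood at least as far apart from each other as either did from chow. Large differences leaned to one side: 35 genes were past 3-fold higher and 18 past 3-fold lower, and 9 were past 8-fold higher and 3 past 8-fold lower. The share of genes past 2-fold either way was 3.74% in the dimmest of 4 equal groups of genes and 1.48% in the brightest. Fewer genes reached the floor on the 2-week array (10869) than on the others (11209 to 11239). Just inside the threshold lay Shank2, Gmds and Per1, at -1.003, -1.004 and -1.004, and just outside it Mme at 0.9998 and Gucy1a1 at -0.998.

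**Figure D1:**
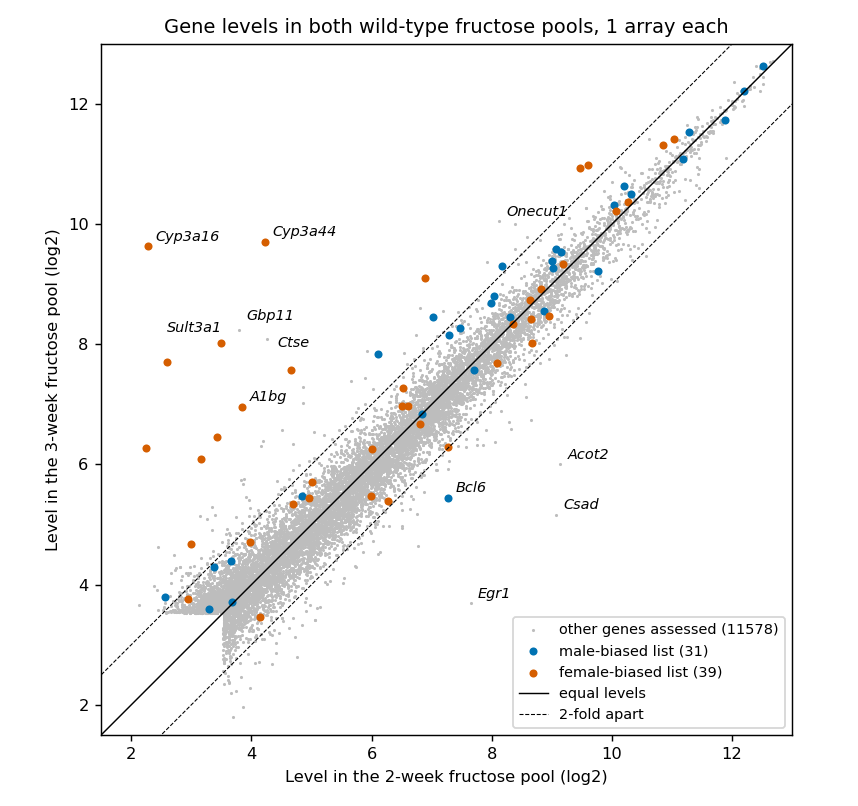
Log2 level of each gene assessed in the 2-week pool (horizontal) against the 3-week pool (vertical), 1 array each, with the female-biased and male-biased lists coloured and dashed lines 2-fold from equality. The points farthest above the upper line are mostly genes of the female-biased list, and the points farthest below the lower line are Egr1, Csad and Acot2.

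The largest differences lay among genes that are known to be higher in the female than in the male mouse liver. Of a list of 44 such genes, 39 were measured and assessed, 13 were past 2-fold higher at 3 weeks and 0 past 2-fold lower. Their median difference was 0.47, with 29 of 39 above 0. Among all genes assessed the shares were 1.27% higher, 1.10% lower and 47.7% above 0. The list was chosen with earlier results of these data known. Several members, among them Cyp3a16 and Akr1c18, reached the floor on the 3-week array and not on the 2-week array. The list overlaps the sulfotransferases described below, and RNA of near-identical family members may share probes, so the values of single Cyp3a, Sult2a and Sult3a genes are uncertain.

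Cyp3a16, a cytochrome P450 gene known from the fetal and newborn mouse liver, had levels of 7.64 on chow, 9.63 at 3 weeks, 2.28 at 2 weeks and 3.33 in the Chrebp null pool. Of the 4 pools the 3-week pool was highest and the 2-week pool lowest, below the floor. The difference was 7.34, or at least 69.0-fold with the 2-week level set at the floor. Cyp3a44, a paralogue on the same chromosome, had levels of 7.24, 9.71, 4.23 and 4.92 in the same order and was 44.4-fold higher at 3 weeks. Both genes were thus above their chow level at 3 weeks and below it at 2 weeks. The 250 bases before the transcription start of these genes are shown because they show how alike the pair is (RefSeq, GRCm38.p6, minus strand, chr5:145469724-145469973 for Cyp3a16 and chr5:145805875-145806124 for Cyp3a44).
Cyp3a16: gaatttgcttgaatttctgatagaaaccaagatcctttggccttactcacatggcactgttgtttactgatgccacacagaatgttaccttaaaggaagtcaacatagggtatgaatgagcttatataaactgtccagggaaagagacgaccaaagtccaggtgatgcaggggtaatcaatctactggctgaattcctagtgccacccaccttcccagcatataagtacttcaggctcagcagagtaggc
Cyp3a44: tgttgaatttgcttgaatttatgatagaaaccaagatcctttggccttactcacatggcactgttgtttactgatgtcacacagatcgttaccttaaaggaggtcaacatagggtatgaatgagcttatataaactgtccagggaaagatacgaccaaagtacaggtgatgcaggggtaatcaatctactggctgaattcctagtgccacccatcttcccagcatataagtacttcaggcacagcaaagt
Once aligned, 236 of 250 bases (94.4%) were identical, and neither stretch held the STAT5 motif given below. Of 6 Cyp3a genes assessed, 2 were at least 2-fold higher, against 1.27% of all genes assessed. Cyp3a25 differed by 0.78 and Cyp3a13 by 0.34, whereas Cyp3a59 differed by -0.13 and Cyp3a11, the main drug-metabolising member, by -0.51 (levels 11.35 on chow, 10.53 at 3 weeks, 11.04 at 2 weeks and 11.57 in the Chrebp null pool). A pair of bright probe sets shared by several Cyp3a genes, which entered no gene-level value, was higher at 3 weeks by 1.43 and 1.67.

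Cytosolic sulfotransferases add sulfate to steroids, bile acids and drugs. Of 19 genes of the family, 14 were assessed, 9 were at least 2-fold higher at 3 weeks and 0 lower, with a median difference of 1.83. Among all genes assessed the shares were 1.27% higher and 1.10% lower. Sult3a1, Sult3a2, Sult2a3, Sult2a5, Sult2a6 and Sult1e1 reached the floor on the 3-week array and not on the 2-week array. For them the floor itself selects for a higher 3-week level, so the count and the median lean that way. Sult3a1, an amine sulfotransferase, had levels of 7.62 on chow, 8.02 at 3 weeks, 3.50 at 2 weeks and 2.67 in the Chrebp null pool. Its 3-week and chow levels were close to each other, and both others lay below the floor, so the 3-week level was at least 22.7-fold above that at 2 weeks. Its paralogue Sult3a2 had levels of 5.55, 7.71, 2.59 and 1.61 in the same order and was at least 18.3-fold higher. The Sult2a genes encode hydroxysteroid and bile acid sulfotransferases. Sult2a1 had levels of 7.67 on chow, 7.57 at 3 weeks, 4.67 at 2 weeks and 6.72 in the Chrebp null pool, a 7.48-fold difference, and Sult2a2 had 8.38, 9.10, 6.89 and 8.02, a 4.61-fold difference. For both, the 2-week pool alone was low. Sult2a6 behaved otherwise, with 2.00, 6.27, 2.24 and 1.80, so that the 3-week pool alone lay above the floor, at least 6.74-fold above the 2-week pool. Sult2a3 was at least 7.68-fold and Sult2a5 at least 2.21-fold higher, while Sult2a4 was lower by 0.68. Outside these clusters, Sult5a1 was 3.75-fold higher. Sult1e1, the estrogen sulfotransferase, had levels of 4.39, 5.15, 3.40 and 8.22 and was at least 3.10-fold higher at 3 than at 2 weeks, with its highest level by far in the Chrebp null pool. Sult1a1, Sult1b1, Sult1c2 and Sult1d1 differed by 0.27 to 0.83. Without the genes of the sex-biased lists, 6 sulfotransferases remained and their median difference was 0.78.

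The female-biased list held further genes past 2-fold. A1bg, which encodes a plasma glycoprotein of the immunoglobulin superfamily, had levels of 8.14 on chow, 6.97 at 3 weeks, 3.85 at 2 weeks and 2.34 in the Chrebp null pool, an 8.67-fold difference between the fructose pools. Akr1c18, which inactivates progesterone, had levels of 3.53, 6.10, 3.16 and 5.05 and was at least 5.97-fold higher. The 2-week pool was thus lower than chow for A1bg, and the 3-week pool higher than chow for Akr1c18. Cyp17a1, which makes androgen precursors, had levels of 10.21, 10.99, 9.61 and 8.71 (a difference of 1.38). Cyp2c69 had levels of 10.80, 10.94, 9.46 and 6.67 (a difference of 1.48). Other well-known members stayed under 2-fold. Cyp2b9 differed by 0.39, Cyp2a4 by 0.46, Cyp2b13 by 0.11, Hamp2 by 0.14 and Fmo1 by 0.11. Members on the other side of 0 were Nipal1 (-0.97), the lipoprotein lipase gene Lpl (-0.87), Fmo2 (-0.65) and the female-biased transcription factor gene Cux2 (-0.52). The list therefore did not move as a block.

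Genes known to be higher in the male liver leaned the same way, not the opposite way. Of 42 genes, 34 were measured and 31 assessed. At 3 weeks 4 were past 2-fold higher and 1 past 2-fold lower, with a median difference of 0.30 and 24 of 31 above 0. The shares over all genes assessed were 1.27% higher, 1.10% lower and 47.7% above 0. Mup21, a major urinary protein gene, had levels of 6.67 on chow, 7.84 at 3 weeks, 6.10 at 2 weeks and 3.79 in the Chrebp null pool, a difference of 1.74. Cyp7b1, the oxysterol hydroxylase, had 9.15, 8.46, 7.02 and 6.68, a difference of 1.44. Cyp4a12b, a fatty acid hydroxylase, had 8.76, 9.30, 8.18 and 5.88, a difference of 1.13. In all 3 genes the Chrebp null pool was lowest and the 2-week pool next. Slc15a5 was 1.23 higher, or 0.28 with its 2-week level at the floor. Elovl3, Hsd3b5 and Cyp4a12a, all classical male markers, were higher by 0.76, 0.80 and 0.88. The abundant Mup20 and Mup3 differed by 0.02 and 0.12. The single member past 2-fold in the other direction was Bcl6.

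Both lists together with sex-chromosome genes supplied 17 of the 148 higher genes (11.5%) and 1 of the 128 lower genes (0.781%), against 0.635% of all genes assessed. The lists were chosen with earlier results of these data known, so these shares are a description and not independent evidence. Many of the 17 are Sult2a, Sult3a and Cyp3a paralogues that may share probes, so they are not separate counts. The sex-chromosome genes themselves differed by 0.20 to 0.51, all toward less Xist and more Y-linked RNA at 2 weeks. Xist, transcribed from the inactive X of females, had levels of 8.84 on chow, 8.77 at 3 weeks, 8.56 at 2 weeks and 7.04 in the Chrebp null pool. Among Y-linked genes, Eif2s3y had 6.12, 6.00, 6.51 and 7.34, Kdm5d had 4.02, 4.07, 4.42 and 5.18, and Uty had 4.03, 4.67, 4.87 and 5.39. The 2-week pool was thus lower than the 3-week pool by 0.21 in Xist and higher by 0.51, 0.35 and 0.20 in the Y-linked genes. All 4 differences were under 2-fold. The part of sex composition in the differences above was not tested.

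Growth hormone acts in the liver through its receptor Ghr, the kinase Jak2 and STAT5, which switch on Igf1 and the feedback inhibitors Socs2 and Cish. Of 17 genes of this axis assessed, 1 was past 2-fold higher and 1 past 2-fold lower, with a median difference of 0.10. The targets Igf1, Socs2, Cish and Igfals were higher at 3 weeks by 0.34, 0.28, 0.19 and 0.90. The signalling genes Ghr, Stat5a, Stat5b and Jak2 differed by 0.17, -0.07, -0.52 and -0.43. The gene past 2-fold higher was Onecut1, which encodes the transcription factor HNF6, with levels of 8.77 on chow, 10.05 at 3 weeks, 8.12 at 2 weeks and 7.71 in the Chrebp null pool (3.82-fold). Past 2-fold lower was Bcl6, a repressor that binds many STAT5 sites and is higher in males. It had levels of 7.11 on chow, 5.45 at 3 weeks, 7.28 at 2 weeks and 5.70 in the Chrebp null pool (3.55-fold). Bcl6 thus separated the pools into chow and 2 weeks on the high side and 3 weeks and Chrebp null on the low side, a grouping not shared by Cyp3a16 or A1bg.

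The upstream sequences of A1bg and Bcl6 are shown because each holds the STAT5 motif TTCNNNGAA, which reads the same on both strands. The matches are in capitals (RefSeq, GRCm38.p6, minus strand, chr15:60921271-60921520 for A1bg and chr16:23981284-23981533 for 1 start of Bcl6). That Bcl6 start was chosen for its number of matches.
A1bg: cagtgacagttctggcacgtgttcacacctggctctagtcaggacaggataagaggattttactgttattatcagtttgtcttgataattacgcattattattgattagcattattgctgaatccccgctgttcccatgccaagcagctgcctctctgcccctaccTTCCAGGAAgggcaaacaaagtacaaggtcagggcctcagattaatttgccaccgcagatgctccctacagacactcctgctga
Bcl6: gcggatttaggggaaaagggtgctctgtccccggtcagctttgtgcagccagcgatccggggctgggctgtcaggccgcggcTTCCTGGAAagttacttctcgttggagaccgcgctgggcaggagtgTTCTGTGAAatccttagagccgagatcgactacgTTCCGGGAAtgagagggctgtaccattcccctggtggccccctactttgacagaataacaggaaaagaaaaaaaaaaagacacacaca
The match in A1bg begins 84 bases before the start, and the 3 matches in Bcl6 begin 168, 122 and 88 bases before it. Over windows of 250 bases before to 50 after a start, the motif was held by 8.30% of 32851 RefSeq windows and by 6.89% of the 11621 windows of genes assessed. It was held by 4 of 122 windows (3.28%) of the higher genes and by 11 of 113 (9.74%) of the lower genes. The share was 13.9% for the female-biased list, 17.2% for the male-biased list and 25% for the growth hormone axis, from 36, 29 and 24 windows. These windows came from 30, 26 and 16 genes, so a gene with several starts counted more than once. A match is a description of the letters and not of binding.

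Some of the strongest differences belonged to none of these lists. Gbp11, a guanylate-binding protein gene, had levels of 8.97 on chow, 8.23 at 3 weeks, 3.80 at 2 weeks and 4.37 in the Chrebp null pool, 21.6-fold between the fructose pools. Ctse, which encodes the aspartic protease cathepsin E, had 8.27, 8.08, 4.26 and 3.45, or 14.2-fold. For both, chow and 3 weeks were high and the 2-week and Chrebp null pools were low, with a wide gap between them. Sult3a1 and A1bg showed that same order of high and low pools. Mup-ps12, a major urinary protein pseudogene, was 5.44-fold higher. Orm3, an acute-phase orosomucoid gene, had levels of 6.91, 6.31, 4.15 and 6.40, so that only the 2-week pool was low (4.45-fold). Further genes higher at 3 weeks were Prelid2 (4.59-fold), the leucine-rich repeat gene Lrtm1 (a difference of 2.18), the amino acid transporter gene Slc43a1 (2.07) and Ugt2b37, a glucuronosyltransferase gene, at 2.18 or 1.11 with its 2-week level at the floor.

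**Figure D2:**
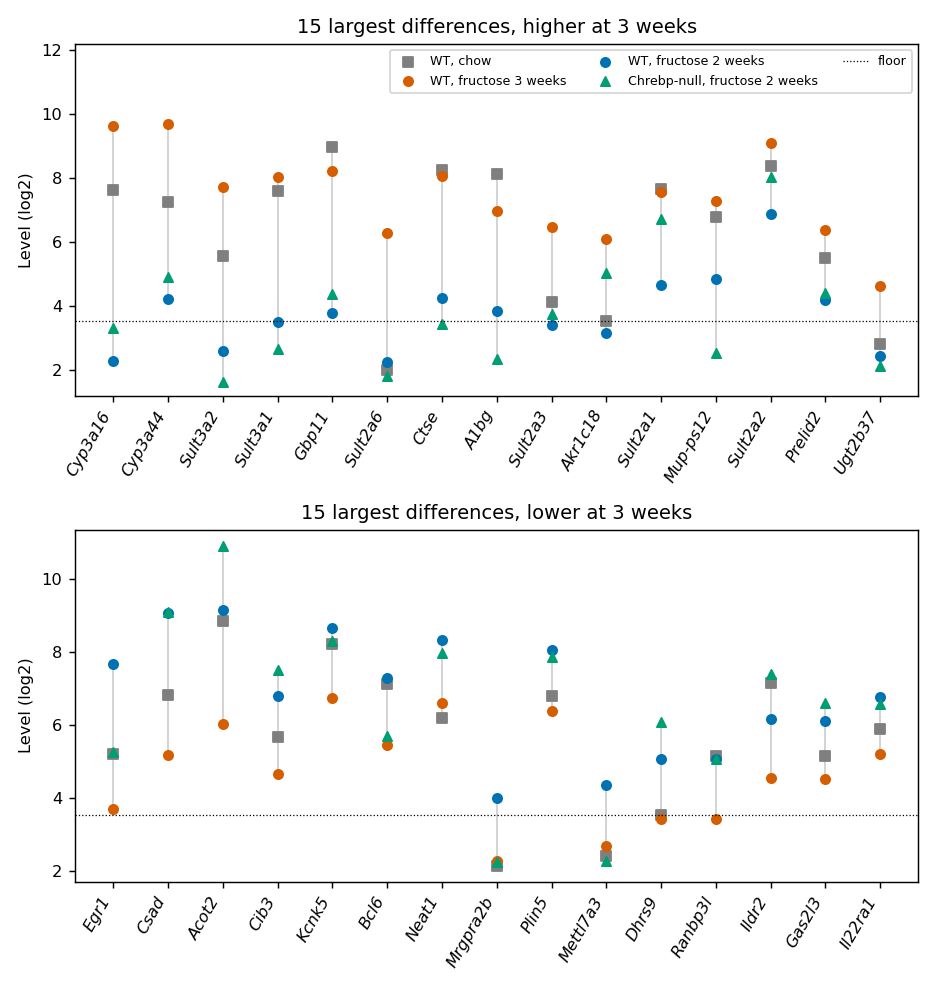
Log2 levels in the 4 pools, 1 array each, of the 15 named genes with the largest difference in each direction between 3 and 2 weeks; the dotted line is the floor. In the upper panel the 2-week pool lies at or near the bottom for most genes, and in the lower panel Csad, Cib3, Neat1 and Plin5 are high in both pools fed for 2 weeks.

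Immediate early genes encode short-lived transcription factors and phosphatases switched on within minutes of a stimulus. Of 26 assessed, 4 were at least 2-fold lower at 3 weeks and 1 at least 2-fold higher, with a median difference of -0.32 and 19 of 26 below 0. The shares over all genes assessed were 1.10% lower, 1.27% higher and 52.2% below 0. Egr1, a zinc finger factor, had levels of 5.19 on chow, 3.69 at 3 weeks, 7.65 at 2 weeks and 5.25 in the Chrebp null pool. Its level at 2 weeks stood above all others and its level at 3 weeks near the floor, a 15.5-fold difference and the largest difference toward lower levels of any gene assessed. Dusp1, a MAP kinase phosphatase gene, had 8.54, 8.10, 9.47 and 8.83 (-1.37). Gadd45b was lower by 1.18 and the matricellular gene Ccn2 by 1.08, or by 0.82 when its probe sets were averaged. Jun, Junb, Jund, Nr4a1, Ier2 and Zfp36 were lower by 0.58 to 0.91. Of the 26, 7 went the other way. Myc had 5.98 on chow, 6.54 at 3 weeks, 5.04 at 2 weeks and 6.90 in the Chrebp null pool (2.83-fold). Dusp6 and Atf3 were higher at 3 weeks by 0.54 and 0.52. Ier3 and Ier5 were higher by 0.90 and 0.62, or by 0.66 and 0.14 with their 2-week levels at the floor. Klf6, Egr3 and Btg1 were nearly equal in both fructose pools.

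Glucocorticoid targets overlapped the early genes. Of 17 assessed, 5 were at least 2-fold lower at 3 weeks and 0 higher, with a median of -0.33 and 14 of 17 below 0. The shares over all genes assessed were 1.10% lower and 52.2% below 0. The 5 were Dusp1, Gadd45b, the lipocalin gene Lcn2 (-1.20), the cell cycle inhibitor gene Cdkn1a (-1.12) and the clock gene Per1 (2.01-fold), and the kinase gene Sgk1 lay just outside at -0.98. Lcn2 had levels of 7.61 on chow, 7.35 at 3 weeks, 8.55 at 2 weeks and 9.69 in the Chrebp null pool. Cdkn1a had 4.53, 5.63, 6.75 and 7.67, so that both fructose pools were above chow. Other standard targets were under 2-fold apart: Fkbp5 differed by -0.09, Tat by -0.22, Tsc22d3 by -0.33 and Zbtb16 by -0.18. Each of the 5 also belonged to an early-response, clock, acute phase or stress list. The labels do not state the hour of tissue collection, and its part was not tested.

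Most core clock genes assessed were nearly level between the pools, but Per1, Arntl and Nr1d1 were lower at 3 weeks. Of 10 genes assessed, 1 was at least 2-fold lower, Per1, with levels of 8.63 on chow, 8.09 at 3 weeks, 9.09 at 2 weeks and 8.58 in the Chrebp null pool. Under quantile normalization its difference was -0.99 and with the trend removed -0.96, both short of the threshold. Arntl, the activator that peaks opposite to the Per genes, was lower by 0.53, and Nr1d1 by 0.39. Clock, Cry1, Cry2, Per3, Nr1d2 and Rora lay between -0.11 and 0.10. Among 17 clock outputs the median was -0.12. Dbp, which the clock drives directly, had 9.70, 8.53, 9.63 and 8.78 (-1.10), and Nfil3, the repressor that competes with DBP for the same sites, had 4.76, 4.92, 3.84 and 4.78 (1.09). Dbp and Nfil3 therefore differed in opposite directions, while their relatives Tef and Hlf differed by 0.22 and -0.14. The E-box CACGTG, which the clock activators bind, was found in 7 of 16 promoter windows of clock outputs (43.8%), from 13 genes. It was found in 7.15% of all windows and in 9.89% of those of genes assessed. The core clock held it in 2 of 18 windows (11.1%) and the immediate early genes in 6 of 27 (22.2%). The share was 8.20% for the genes higher at 3 weeks and 11.5% for the lower ones.

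**Figure D3:**
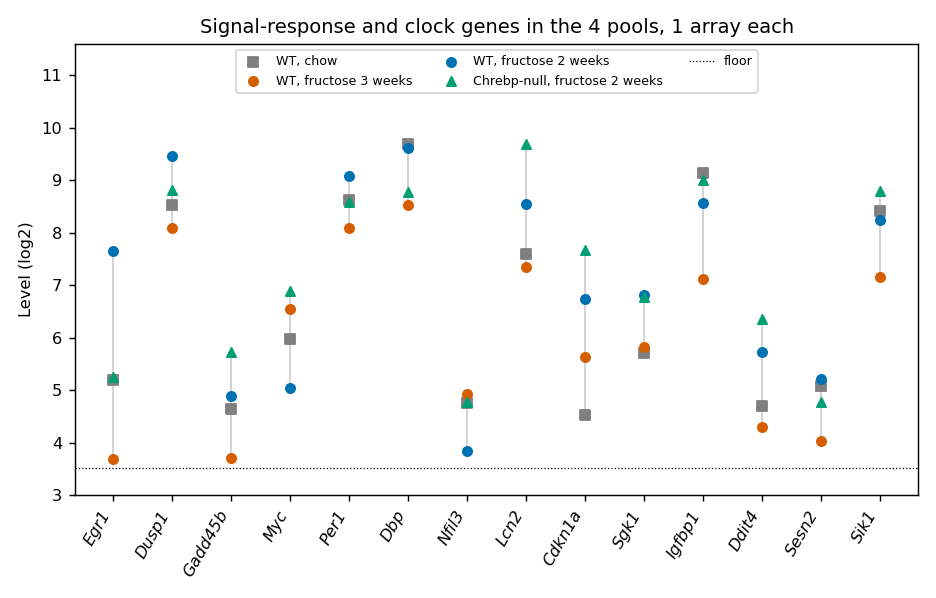
Log2 levels of 14 signal-response, stress and clock genes in the 4 pools, 1 array each; the dotted line is the floor. For Egr1, Dusp1 and Per1 the 2-week pool is the highest, for Lcn2, Cdkn1a and Ddit4 the Chrebp null pool is the highest, and for Myc and Nfil3 the 2-week pool is the lowest.

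Insulin suppresses Igfbp1 and other FOXO1 targets in the liver. Of 20 genes of this response assessed, 1 was at least 2-fold lower at 3 weeks and 0 higher, with a median of -0.16. Igfbp1, which encodes a binding protein of insulin-like growth factors, had levels of 9.14 on chow, 7.12 at 3 weeks, 8.57 at 2 weeks and 9.0 in the Chrebp null pool, so only the 3-week pool was low (2.73-fold). Igfbp2 was lower by 0.63, Irs1 by 0.68, Foxo1 by 0.60 and Cdkn1b by 0.75. The gluconeogenic genes Pck1 and G6pc differed by -0.14 and -0.06, Irs2 by -0.16 and Ppargc1a by 0.45. Igfbp1 therefore had the largest difference of the 20, of which 14 were below 0 and 6 above. Cdkn1b, with 6.11 on chow, 5.22 at 3 weeks, 5.98 at 2 weeks and 5.98 in the Chrebp null pool, was also lowest at 3 weeks. Sik1, a kinase gene induced by fasting signals, was lower by 1.09, with 8.43, 7.16, 8.25 and 8.81.

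Among metabolic genes lower at 3 weeks, Csad and Acot2 showed the largest differences. Csad encodes cysteine sulfinate decarboxylase, which makes the taurine precursor hypotaurine. It had levels of 6.81 on chow, 5.16 at 3 weeks, 9.07 at 2 weeks and 9.08 in the Chrebp null pool. Both pools fed for 2 weeks were alike and above chow, and the 3-week pool was below chow (15-fold below the 2-week pool). The taurine transporter gene Slc6a6 was lower by 1.42, with 8.67, 7.83, 9.24 and 9.26, and its pools had the same order. Cdo1, which feeds cysteine into the same route, differed by -0.10. Acot2, a mitochondrial acyl-CoA thioesterase gene, had 8.83 on chow, 6.01 at 3 weeks, 9.14 at 2 weeks and 10.90 in the Chrebp null pool, so the 3-week pool alone was low (8.77-fold). Its close paralogue Acot1 differed by 0.77 in the opposite direction, with 5.58, 6.39, 5.62 and 6.54, and probes may not separate the paralogues fully. Acot3 and Acot4 differed by 0.36 and -0.24. Ass1, a urea cycle gene, was 1.32 lower at low levels (4.39, 4.54, 5.86 and 5.78), while the other urea cycle genes Cps1, Otc, Asl and Arg1 differed by -0.10 to 0.22.

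PPARA switches on fatty acid oxidation in fasting. Of 30 of its targets assessed, 2 were at least 2-fold lower and 0 higher, with a median of -0.16. They were Acot2 and Plin5, a lipid droplet protein gene with levels of 6.79 on chow, 6.38 at 3 weeks, 8.05 at 2 weeks and 7.85 in the Chrebp null pool (-1.67). Pdk4 was lower by 0.63. Cpt1a, Fabp1, Vnn1 and Ppara itself lay between -0.05 and 0.14, and Cyp4a14 at -0.31. Genes of mitochondrial fatty acid oxidation, 17 assessed, had a median of 0.02 with 0 past 2-fold. Members between 0 and the threshold went both ways, with Fitm1, Acot1, Fabp2, Cyp4a31 and Eci2 higher by 0.97, 0.77, 0.72, 0.53 and 0.47, and 19 of the 30 were below 0.

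ChREBP switches on genes of glycolysis and lipid synthesis when sugar is plentiful. Over 22 known targets the median was 0.50 above chow at 3 weeks and 0.89 above chow at 2 weeks, although single members such as Gpd1 and Arntl were below chow at 3 weeks. Between the fructose pools the median was -0.22 with 18 of 22 below 0. At least 2-fold apart were Pnpla3 (higher) and Cdkn1a and Gpd1 (lower). Mlxipl itself differed by -0.19. Pklr, the liver pyruvate kinase, had levels of 9.90 on chow, 10.41 at 3 weeks, 11.22 at 2 weeks and 8.50 in the Chrebp null pool (-0.81). Fasn, the fatty acid synthase, had 10.15, 10.65, 11.40 and 9.94 (-0.75), and Srebf1 had 8.78, 8.82, 9.67 and 8.12 (-0.85). In these 3 genes the 2-week pool was highest and the 3-week pool lay between it and chow. Acaca, Acly and Tkfc were lower by 0.36, 0.52 and 0.50 and Khk, the ketohexokinase, by 0.25. Thrsp, Scd1, Me1 and Elovl6 lay between -0.14 and 0.19. Gpd1, which makes glycerol 3-phosphate, was 1.09 lower on its brightest probe set, but another set differed by 0.23 and their average by -0.43. All 20 fatty acid synthesis genes were under 2-fold apart, with a median of -0.10. Glycolysis genes, 17 assessed, had a median of -0.24, and Gpd1 was again the 1 past 2-fold.

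Genes of triglyceride storage split. Pnpla3, a lipid droplet acyl hydrolase known for its response to sugar, had levels of 3.12 on chow, 6.49 at 3 weeks, 5.20 at 2 weeks and 3.78 in the Chrebp null pool. It was below the floor on chow and clearly above it in both fructose-fed wild-type pools, higher at 3 weeks by 1.29. G0s2, an inhibitor of the lipase encoded by Pnpla2, had 6.97, 7.95, 6.85 and 7.21 (1.09, or 0.98 with its probe sets averaged), and Fitm1 and Cidec were higher by 0.97 and 0.68. Plin5, Plin4 and Plin3 were lower by 1.67, 0.95 and 0.56, while Plin2 was higher by 0.27. Dgat1, Dgat2 and Gpam differed by -0.18, -0.37 and -0.51. Of 22 genes assessed, 2 were past 2-fold higher and 1 lower, with a median of -0.13.

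Cholesterol synthesis was below chow in both fructose pools, with medians over 19 genes of -0.80 at 3 weeks and -0.62 at 2 weeks, both against the same chow array. Between 3 and 2 weeks 0 of the 19 were past 2-fold. Hmgcs1 (-0.72), Insig1 (-0.74) and Srebf2 (-0.77) were lower, and Sqle (0.12), Cyp51 (0.02) and Fdps (0.13) were level. Of 10 genes of cholesterol uptake and efflux, 9 were below 0 with a median of -0.36 and 0 past 2-fold, among them Abcg5 (-0.59), the receptor gene Scarb1 (-0.49) and Abca1 (-0.39). Bile acid genes, 24 assessed, had a median of -0.26 with 17 below 0, 2 at least 2-fold higher and 1 lower. The higher genes were Cyp7b1 and Nr0b2, the nuclear receptor that represses bile acid synthesis, with 7.18 on chow, 7.25 at 3 weeks, 6.03 at 2 weeks and 5.79 in the Chrebp null pool (1.23). Past 2-fold lower was the exporter gene Abcc3, with 9.52, 7.69, 8.80 and 9.40 (-1.11), and the canalicular bile salt pump gene Abcb11 was lower by 0.82. Cyp7a1, the rate-limiting enzyme of bile acid synthesis, differed by -0.38, and Cyp8b1 by 0.09. Nr0b2 thus matched chow at 3 weeks, and Abcc3 was lowest there.

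NRF2 controls glutathione and antioxidant genes. All 19 targets assessed were below 0 at 3 against 2 weeks, with a median of -0.41, although 1 alone was past 2-fold. Over all genes assessed 52.2% were below 0. Gstm3, a glutathione S-transferase gene, had levels of 9.94 on chow, 9.47 at 3 weeks, 10.56 at 2 weeks and 11.47 in the Chrebp null pool (-1.09). Ephx1, Pgd, Ugdh, Gclc and Nqo1 were lower by 0.83, 0.71, 0.66, 0.63 and 0.48, and Nfe2l2, which encodes NRF2, by 0.06. Against chow the list median was -0.39 at 3 weeks and 0.03 at 2 weeks, so the 3-week pool was the one below chow. Targets of the drug-sensing receptors CAR and PXR, 27 assessed, had a median of -0.11. Sult1e1 was the 1 at least 2-fold higher, and Gstm3 and Abcc3 the 2 lower.

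Stress and immune lists were mostly level. Of 21 integrated stress response genes, 2 were at least 2-fold lower, the mTOR inhibitor genes Ddit4 (4.71 on chow, 4.30 at 3 weeks, 5.74 at 2 weeks and 6.36 in the Chrebp null pool) and Sesn2 (5.09, 4.04, 5.22 and 4.78), while Atf4, Asns and Trib3 differed by -0.19, -0.09 and -0.07. Chaperones of the endoplasmic reticulum, 21 assessed, had a median of -0.14 and 0 past 2-fold. Acute phase genes, 23 assessed, had a median of 0.01, with Orm3 higher and Lcn2 lower past 2-fold. Orm1, Orm2 and the pentraxin gene Apcs were higher by 0.70, 0.82 and 0.86, and Saa3 was lower by 0.77. Hp, Saa2 and Crp lay within -0.10 and 0.05. A probe set shared by the serum amyloid A genes Saa1 and Saa2 was lower by 1.33, unlike the set of Saa2 alone. Interferon and antigen presentation genes, 26 assessed, had a median of -0.05. The class II genes H2-Ab1 (8.06, 6.87, 7.98 and 7.69) and H2-Eb1 (6.36, 5.79, 6.81 and 6.53) were lower by 1.11 and 1.02, and H2-Aa by 0.72. Ifit1 was higher by 0.91 and Isg15 by 0.15. Neat1, a nuclear long non-coding RNA of paraspeckles, had 6.18, 6.59, 8.33 and 7.95 (-1.74), with both pools fed for 2 weeks above the others.

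Mitosis genes were dim. Of 20 measured, 7 reached the floor, with a median difference of 0.70 between 0.06 and 1.10. Of these, Ccna2, Aurka and Kif11 reached it on the 3-week array and not on the 2-week array, so the floor itself selects for a higher 3-week level. Mki67, the proliferation marker, had levels of 4.59 on chow, 5.58 at 3 weeks, 4.72 at 2 weeks and 5.25 in the Chrebp null pool, and Ccnb2 had 3.81, 4.77, 3.89 and 5.12. Ccna2 was past 2-fold at 1.10, and at 0.83 with its 2-week level at the floor. Over all 20 measured genes the median was 0.29. Replication genes, 17 assessed, had a median of 0.09, with Mcm10 higher by 1.09 and Pcna level at -0.02. Subunits of oxidative phosphorylation had a median of 0.24, with 18 of 25 above 0 and 0 past 2-fold. Ndufa2 was higher by 0.76 and Ndufb8 by 0.64, while the bright Atp5b, Atp5a1 and Sdha were lower by 0.16, 0.13 and 0.17. Heat shock genes, 13 assessed, had a median of 0.12 with 0 past 2-fold.

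**Figure D4:**
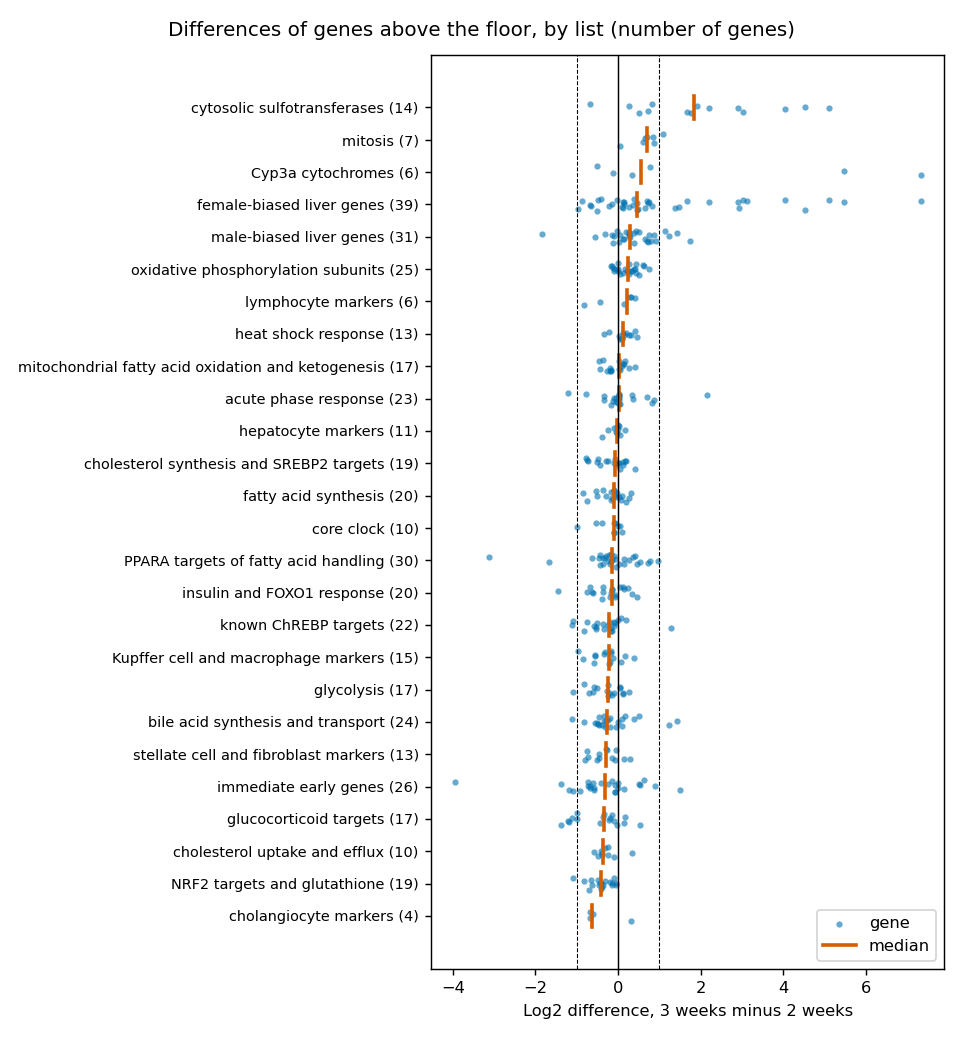
Log2 difference between 3 and 2 weeks (horizontal) of each gene above the floor in 26 lists that the text describes, with the number of genes in brackets, the median as a bar and dashed lines at 2-fold. Among the lists drawn, sulfotransferases reach the highest median (1.83), and cholangiocyte markers (-0.64, 4 genes) and NRF2 targets (-0.41, 19 genes) the lowest. For sulfotransferases and mitosis genes the floor itself selects for a higher 3-week level.

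The liver label was borne out by its markers. Hepatocyte markers were bright and level, with a summed log2 level of 15.13 at 3 weeks and 15.17 at 2 weeks, and all 11 were under 2-fold apart. Kupffer cell markers, the resident macrophages, summed to 11.14 and 11.44. Of 15 assessed, 12 were below 0 with a median of -0.22 and 0 past 2-fold, led by Cd5l (-0.97) and Adgre1 (-0.85), while Clec4f, Vsig4 and Cd163 differed by -0.17, 0.08 and 0.39. Stellate cell and fibroblast markers summed to 11.08 and 11.19, and 11 of 13 were below 0 with a median of -0.28, led by Pdgfrb (-0.80) and the collagen genes Col1a2 (-0.75) and Col3a1 (-0.74). Endothelial markers summed to 11.90 and 11.98, with a median of -0.04. Cholangiocyte markers were dim, summing to 6.61 and 7.01. Of 7 measured, 4 were assessed, with a median of -0.64, and Epcam, Muc1 and Sox9 were lower by 0.69, 0.69 and 0.59. Lymphocyte markers summed to 8.64 and 8.91, with a median of 0.23 over 6 genes. Markers of neutrophils and pancreatic acinar cells were mostly near or below the floor in both pools. The acinar gene Try4 lay above it, at 4.83 at 3 weeks and 4.54 at 2 weeks. Of 10 red cell markers 1 was measured, and it lay below the floor in both pools. The class II genes were also lower at 3 weeks. H2-Ab1 was below chow at 3 weeks and near it at 2 weeks, whereas Adgre1 (6.19 on chow, 6.03 at 3 weeks, 6.89 at 2 weeks and 6.43 in Chrebp null mice) and Cd5l (7.52, 7.27, 8.24 and 8.03) were near chow at 3 weeks and above it at 2 weeks. In bulk liver fewer cells of a type and less RNA per cell cannot be told apart, and the part of cell composition in the differences was not tested.

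The chow and Chrebp null levels place each difference. Of the 148 genes higher at 3 weeks, the chow level was nearer the 3-week level in 97 (65.5%), against 46.5% of all genes assessed. For 56 of the 148 the chow pool was at least 2-fold from the 2-week pool, and for 23 at least 2-fold from the 3-week pool. Gbp11, Ctse, Sult3a1, Sult2a1 and Orm3 were past 2-fold from chow at 2 weeks alone, and Akr1c18, Sult2a3 and Sult2a6 at 3 weeks alone. Cyp3a16, Cyp3a44, Sult3a2 and A1bg were among the 6 that were so at both times. Of the 128 lower genes the chow level was nearer the 3-week level in 62 (48.4%). For 35 it was at least 2-fold from the 2-week pool, and for 37 at least 2-fold from the 3-week pool. Neat1 and Plin5 were past 2-fold from chow at 2 weeks alone, and Acot2, Bcl6, Igfbp1 and Abcc3 at 3 weeks alone. Egr1, Csad and Cib3 were among the 4 that were so at both times. The Chrebp null level was nearer the 2-week level in 88 of the 148 higher genes (59.5%), in 96 of the 128 lower genes (75%) and in 60% of all genes. The 2-week pool was the lowest of the 4 pools in 105 of the 148 higher genes and the highest of the 4 in 69 of the 128 lower genes. The 3-week pool was the highest in 117 and the lowest in 109. Over all genes assessed, the 2-week pool was outermost on its side in 43.7% and the 3-week pool in 57.6%. The choice of genes by their difference raises these last counts, since it favours outermost levels.

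Few called genes could be checked on another probe set. Of the 276, 15 had several sets, and 6 of their other sets lay above the floor, 3 of them in the same direction and 0 past 2-fold. The single values given above are those of the set with the highest mean level.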

How the data were processed

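The authors deposited log2 expression values for 41345 probe sets on 4 Affymetrix arrays, made with affy and RMA per the submitters' processing notes. The sources used here do not give versions or say if all arrays were normalized as one batch. RMA compresses large differences and those of dim genes. RNA of the livers of a group was combined before labelling, per the labels' protocols. Array medians lay between 3.11 and 3.17, and Pearson's r between the wild-type fructose arrays was 0.974 over all probe sets.

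The platform annotation names 1 gene for 23521 probe sets, several for 1814 and none for 16010. The last 2 kinds entered no gene-level value. For 1082 genes with several sets the set with the highest mean was used. Identifiers of 23328 sets were found in a GRCm38.p6 table. Genes and the 53 lists (pathways, sex bias, cell types) were chosen with earlier results of these data known. List genes without a set of their own, such as Per2, are not analysed here.

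Named genes are the 15 largest differences in each direction (leaving out symbols without a described function, small RNAs and receptor families), up to 6 members per list and all members of the sex-chromosome, growth hormone, clock and steroid receptor lists. Slc6a6, H2-Eb1, Lrtm1, Slc43a1, Shank2, Gmds, Mme and Gucy1a1, and some list members near 0, were added after their values were seen. Alternatives were another floor or none, median centring, quantile normalization, removal of the trend with level (lowess, fraction 0.3), averaged probe sets, levels set at the floor, 1.5-fold and 3-fold thresholds, and no sex-biased genes. The procedure was tested on simulated data with changes set only in genes well above the floor, so the test does not cover dim genes. Python 3.11.15 was used (pandas 2.3.3, statsmodels 0.14.6, matplotlib 3.10.9).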

Additional observations from a re-analysis of the deposited data

Results flagged for a closer look

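Probe sets outside the gene-level values also differed between the wild-type fructose pools. Of 5725 sets above the floor that carry no gene name, 1032 (18.0%) were at least 2-fold apart, 507 higher and 525 lower at 3 weeks. The same share was 13.4% for 3 weeks against chow and 18.9% for 2 weeks against chow. Of 844 sets with several gene names, 39 (4.62%) were at least 2-fold apart, 30 higher and 9 lower. Of the 30, 9 sets carry the same family of chemokine genes, some with identical values, so the sets are not independent.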

How the results depend on the processing

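The counts of 148 higher and 128 lower genes became 57 and 70 of 5756 with a floor at the 75 percentile, 739 and 750 at 1.5-fold and 35 and 18 at 3-fold. The other alternatives moved them by less than 1.5 times, to between 99 and 170 higher and between 98 and 179 lower. Of 52 list medians, 32 held under all alternatives, 18 moved by over 0.1 under at least 1, most often with no floor or the stricter floor, and 2 with a size above 0.2 changed sign. The median of the 4 aryl hydrocarbon receptor targets, -0.24, was 0.0019 over 7 genes without a floor, and that of 6 lymphocyte markers, 0.23, was -0.44 on the 1 gene left by the stricter floor. Of 62 named genes past 2-fold, 51 stayed past it under every alternative in which they were assessed, and 11 did not under at least 1, among them Per1, Gpd1, Ildr2, Ccn2, G0s2 and Ccna2. None changed direction. No paired analysis was possible because each group has 1 array. Pooled RNA and single arrays leave no estimate of the spread between mice.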
